A study of Mus musculus with 17 samples.

Results

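The measurements concern 9 mRNAs that mouse hepatocytes make in bulk, read in plasma cell-free RNA (cfRNA). The 9 were chosen by gene name, as hepatocyte genes, out of the 49585 genes of the annotation, and they are *Alb*, *Trf*, *Apob*, *Apoa1*, *Apoa2*, *Ttr*, *Serpina1b*, *Serpina3k* and *Fgb*. The plasma came from wild-type C57BL/6J mice aged 13 weeks in 3 groups. The MG group (6 libraries) lived in microgravity on the International Space Station during the Mouse Habitat Unit-1 mission, and the AG group (6 libraries) lived there on a rotating platform that gave an artificial 1-G load. The GC group (5 libraries) stayed on the ground. Each library was taken from a separate mouse. The comparison of MG with AG therefore concerns gravity within flight, and the comparisons with GC concern flight as a whole.

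Hepatocytes, the main cells of the liver, release most of the proteins of blood plasma, and the mRNAs for these proteins are among the most abundant in that cell. Plasma also holds RNA fragments that tissues and blood cells shed, so a hepatocyte mRNA can be read in plasma apart from the protein it encodes. The 9 mRNAs fall into carriers of small molecules and metals (albumin, transferrin, transthyretin), proteins of lipoprotein particles (*Apob*, *Apoa1*, *Apoa2*), protease inhibitors of the serpin family, and the clotting protein fibrinogen. Few of them are wholly private to hepatocytes. *Apob* and *Apoa1* are also made by the gut lining, *Ttr* by the choroid plexus of the brain, and *Trf* by several tissues. In plasma of this kind, fewer cells shedding RNA and less RNA shed per cell cannot be told apart.

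The libraries held 84657 to 277682 counted reads, of which 4 genes that each passed 5% of at least 1 library (*Tmem38b*, *Rn18s-rs5*, *Polr2m* and *Lars2*) took 70.6% to 91.7%. Levels are given below as reads, as CPM, the usual scaling of reads to the library total, here with totals adjusted by the TMM method for differing composition, or as RPKM, which also divides by gene length and is relative to all mapped reads. A library held 2 to 504 reads of the 9 mRNAs. A count of 0 allows up to 3 reads, which were worth 10.8 to 35.4 CPM in these libraries, before TMM scaling.

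A shared feature of some members lies in their promoters. RefSeq (build GRCm38.p6) held promoter windows for 6 of the 9 genes, from 250 bases before to 50 bases after the start of transcription. The letters GTTAAT are the core of the site read by HNF1, a transcription factor that drives many liver genes. Read on both strands, with no other motif searched, they occurred in the windows of 3 of the 6, *Alb*, *Serpina1b* and *Fgb*, against 7.10% of all 32851 windows listed. The windows of *Apob*, *Apoa1* and *Apoa2* did not hold these letters. The 3 stretches are shown because they hold the letters, which begin 32, 26 and 29 bases before the start that RefSeq gives. The gene coordinates given further on are those of GENCODE M21, whose gene start is the same for *Fgb*, 27 bases downstream for *Alb*, where the letters would begin 59 bases before it, and 92184 bases upstream for *Serpina1b*. Each runs 5′ to 3′ on the strand of the gene from 100 bases before to 50 bases after the RefSeq start, with the letters, or their reverse complement in *Fgb*, in capitals. They cover chr5:90460770-90460919 on the plus strand for *Alb*, chr12:103738140-103738289 on the minus strand for *Serpina1b*, and chr3:83049814-83049963 on the minus strand for *Fgb*.
Alb: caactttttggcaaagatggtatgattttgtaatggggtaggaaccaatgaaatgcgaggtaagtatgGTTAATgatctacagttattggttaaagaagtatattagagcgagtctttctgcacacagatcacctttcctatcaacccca
Serpina1b: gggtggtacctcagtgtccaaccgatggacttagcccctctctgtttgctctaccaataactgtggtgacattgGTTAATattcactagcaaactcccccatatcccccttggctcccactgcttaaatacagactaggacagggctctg
Fgb: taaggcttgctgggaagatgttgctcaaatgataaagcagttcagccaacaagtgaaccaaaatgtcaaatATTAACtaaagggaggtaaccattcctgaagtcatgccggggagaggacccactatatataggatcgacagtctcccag
No binding was measured, and a match of letters is not a site in use.

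The liver mRNAs were concentrated in 1 MG mouse and 1 AG mouse. Of 1123 reads of the 9 genes over the 17 libraries, MG replicate 6 held 504 and AG replicate 6 held 255. These libraries thus held 67.6% of the members' reads, against 14.2% of all counted reads. The share of a library's reads that fell on the 9 genes was 0.226% in MG replicate 6 (95% Wilson interval 0.207 to 0.246) and 0.153% in AG replicate 6 (0.136 to 0.173), where intervals cover counting error only. In the other 15 libraries it ran from 0.00105% in AG replicate 4 to 0.0648% in MG replicate 5. The summed CPM of MG replicate 6 was 8.81 times, and that of AG replicate 6 4.57 times, that of MG replicate 5, the next library. On plain counts these ratios were 3.48 and 2.36, and on mapped reads 6.88 and 1.997. MG replicate 6 and AG replicate 6 were the highest libraries with any of 4 denominators, although their order turned, AG replicate 6 leading, when the 4 abundant genes were left out of the denominator.

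**Figure D1:**
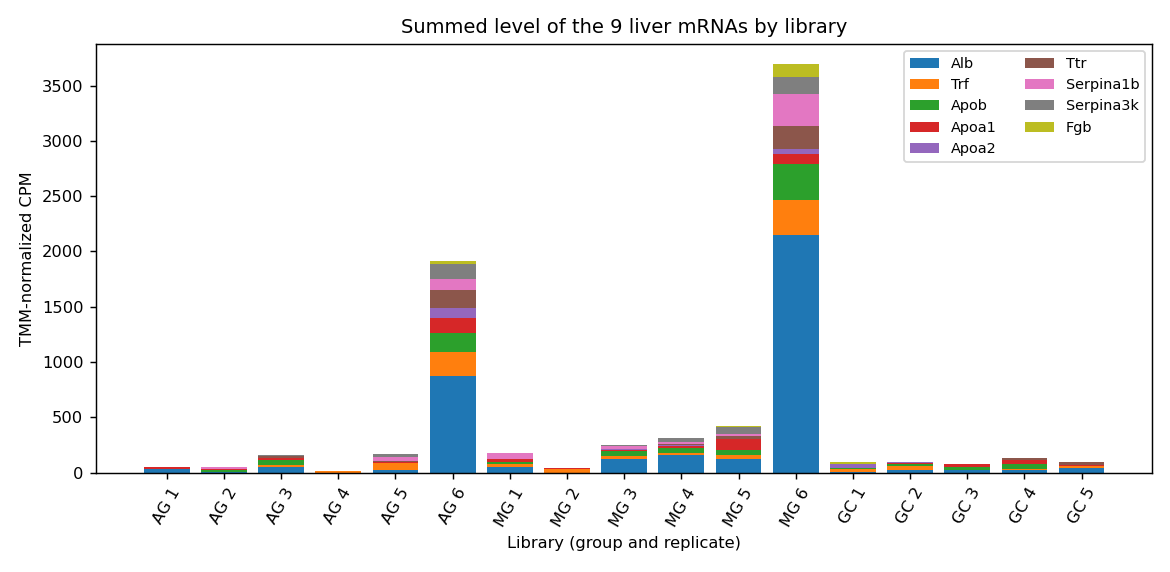
Summed level of the 9 liver mRNAs in each of the 17 libraries, in TMM-normalized CPM, with the genes stacked by colour. MG replicate 6 (3692 CPM) and AG replicate 6 (1913 CPM) stand above the other libraries, of which MG replicate 5 is next (418.8 CPM), and *Alb* makes up the largest block in each.

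The GC mice lay close together near the lower end of the range. Their summed CPM ran from 80.3 to 133.5 with a median of 94.0, and their libraries held 12 to 21 reads of the members. The MG libraries ran from 41.0 to 3692 with a median of 283.7, and the AG libraries from 15.4 to 1913 with a median of 105.5. Without replicate 6 the AG median was 53.2, below that of GC, and the MG median 250.3. AG replicates 1, 2 and 4 and MG replicate 2 lay below every GC library. Reads of all 9 genes were found in 4 libraries, AG replicate 6 and MG replicates 4, 5 and 6. The number of members with a read was 1 to 6 in the other AG libraries and 3 to 5 in the GC libraries. Over all genes and libraries, 60 of 153 values were 0.

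*Alb* (chr5:90460897-90476602, plus strand), which encodes serum albumin, carried 527 of the members' reads. It was read in 15 of 17 libraries. The AG libraries held 0 to 116 reads with a median of 3.5, and the MG libraries 0 to 294 with a median of 21. The 5 GC libraries held 1, 6, 4, 3 and 8 reads. AG replicate 6 and MG replicate 6 held the highest values, and the groups overlapped, since AG replicate 4 and MG replicate 2 had no *Alb* read. The mean level was 434 ± 844 CPM (SD, n = 6) in MG, 164 ± 346 CPM (SD, n = 6) in AG and 25.3 ± 12.9 CPM (SD, n = 5) in GC. Without replicate 6 the means were 90.0 ± 63.7 CPM (SD, n = 5) in MG and 22.7 ± 19.96 CPM (SD, n = 5) in AG. All MG libraries but replicate 2 lay above every GC library, and MG replicates 3 to 6 also lay above every AG library but AG replicate 6.

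For *Alb* the fit across all genes and the permutation test over libraries differed in their call. In the fit across all genes, edgeR's quasi-likelihood test with Benjamini-Hochberg adjustment, *Alb* was higher in MG than in GC by 4.03 on the log2 scale (SE 0.718, adjusted p = 6.27e-05). Without MG replicate 6 the difference was 1.83 (SE 0.703, adjusted p = 0.373), so the call rested on that library. In the same test it was higher in AG than in GC by 2.64 (SE 0.691, adjusted p = 0.0998) and in MG than in AG by 1.39 (SE 0.581, adjusted p = 0.340), neither of which passed. Without AG replicate 6 the difference of MG from AG was 4.21 and passed (adjusted p = 2.44e-05, edgeR quasi-likelihood), and without MG replicate 6 it turned to -0.80 (adjusted p = 0.706). Without AG replicate 2 or AG replicate 5 that of AG from GC passed (adjusted p = 0.0442 and 0.0276), and without AG replicate 6 it turned to -0.18 (adjusted p = 1). The exact two-sided permutation test over libraries, on the difference in mean log2(CPM + 5), gave 1.95 for MG against GC (SE 1.20, p = 0.177, adjusted p over the 3 comparisons = 0.532). For MG against AG this exact permutation test gave a difference of 1.49 (SE 1.55, adjusted p = 0.549), and for AG against GC 0.47 (SE 1.09, adjusted p = 0.758). None of the 3 passed. Without MG replicate 2, which had no *Alb* read, the exact permutation test of MG against GC passed (difference 2.84, adjusted p = 0.0238), and it did not without MG replicate 6 (difference 1.09, adjusted p = 0.758).

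*Trf* (chr9:103204001-103230444, minus strand) encodes transferrin, the iron carrier of plasma. The AG libraries held 0 to 29 *Trf* reads with a median of 2.5, and the MG libraries 4 to 42 with a median of 5.5. The GC libraries held 4, 8, 0, 2 and 3 reads. Outside replicate 6 the MG libraries were even, at 30.1 ± 3.93 CPM (SD, n = 5), while GC was at 19.1 ± 13.8 CPM (SD, n = 5) and overlapped them. In the fit across all genes *Trf* differed between MG and GC by 1.90 on the log2 scale (SE 0.738, adjusted p = 0.313, edgeR quasi-likelihood), and by 0.60 without MG replicate 6. Of the runs of 36 bases, the read length, in the longest *Trf* transcript, 80.4% are also in the overlapping gene *Gm20425*, which held 1 read.

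*Ttr* (chr18:20665280-20674321, plus strand) encodes transthyretin, which carries thyroid hormone and the retinol-binding protein. It was at 0 in 3 of 6 AG, 3 of 6 MG and 3 of 5 GC libraries. AG replicate 6 held 21 of the 24 AG reads and MG replicate 6 held 28 of the 35 MG reads, while the GC libraries held 0, 0, 0, 2 and 5. Without replicate 6 the level was 6.33 ± 11.1 CPM in MG (SD, n = 5) and 4.67 ± 6.66 CPM in AG (SD, n = 5), against 8.39 ± 12.3 CPM in GC (SD, n = 5). The difference between MG and GC in the fit, 2.08 on the log2 scale (SE 0.846, adjusted p = 0.313, edgeR quasi-likelihood), turned to -0.27 with both replicates 6 left out.

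**Figure D2:**
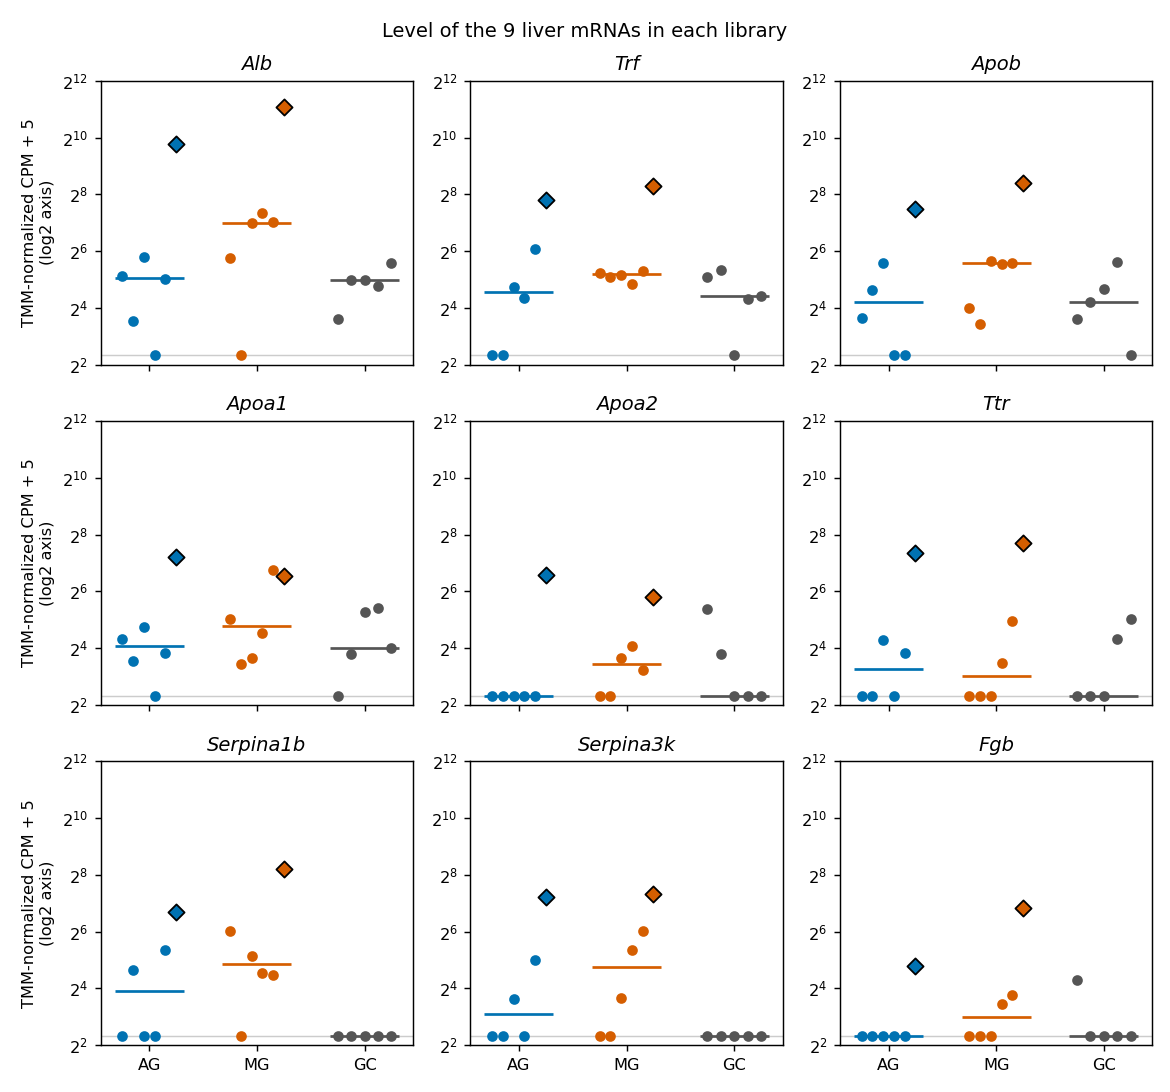
Level of each of the 9 liver mRNAs, as TMM-normalized CPM plus 5 on a log2 axis, with 1 point for each library, a line at the median of each group and a grey line at 0 reads. Diamonds mark AG replicate 6 and MG replicate 6, which hold the highest AG value of every gene and the highest MG value of every gene but *Apoa1*.

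The lipoprotein genes each held fewer reads than *Alb* and *Trf*. *Apob* (chr12:7977648-8016835, plus strand), the structural protein of very-low-density and low-density lipoproteins, held 0 to 23 reads in AG with a median of 2, and 1 to 45 in MG with a median of 6.5. The GC libraries held 1, 3, 3, 6 and 0 *Apob* reads. MG replicate 6 (45 reads) and AG replicate 6 (23 reads) were again highest, and the other MG libraries (29.4 ± 19.3 CPM, SD, n = 5) overlapped GC (17.02 ± 17.05 CPM, SD, n = 5). The difference between MG and GC was 2.19 on the log2 scale (SE 0.760, adjusted p = 0.313, edgeR quasi-likelihood), and 0.85 without MG replicate 6.

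*Apoa1* (chr9:46228580-46230466, plus strand), the main protein of high-density lipoprotein, was the member that followed replicate 6 least. Its highest MG library by CPM was replicate 5, with 24 reads and 102.6 CPM, ahead of replicate 6 with 12 reads and 87.9 CPM. AG replicate 6 held 19 *Apoa1* reads, and the 2 libraries numbered 6 together held 36.05% of the reads of this gene, against 55.9% to 78.3% for the other members. GC held 0, 2, 5, 5 and 2 reads. *Apoa1* differed between MG and GC by 1.22 on the log2 scale (SE 0.768, adjusted p = 0.564, edgeR quasi-likelihood), and by 0.69 without MG replicate 5.

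*Apoa2* (chr1:171225054-171226379, plus strand), also of high-density lipoprotein, was read in 1 of 6 AG libraries, replicate 6, with 12 reads. The MG libraries held 0 to 7 reads with a median of 1. The GC libraries held 5, 2, 0, 0 and 0, so that GC replicate 1, the shallowest library, had the highest RPKM of *Apoa2* in the series, 5.83. No comparison of *Apoa2* passed (log2 differences of -0.33 to 0.73, SE 0.893 to 0.975, adjusted p of 0.847 or more, edgeR quasi-likelihood). Without AG replicate 6 the difference of MG from AG turned to 4.01 and that of AG from GC to -3.59.

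The serpins were the members without a read in GC. *Serpina1b* (chr12:103728156-103830373, minus strand) encodes a form of alpha-1-antitrypsin, which inhibits neutrophil elastase. It held 0 reads in all 5 GC libraries, 0 to 13 in AG with a median of 1.5 and 0 to 40 in MG with a median of 4. MG was at 69.7 ± 111 CPM (SD, n = 6), AG at 25.6 ± 38.1 CPM (SD, n = 6). A read was present in 5 of 6 MG libraries and 3 of 6 AG libraries, so the groups overlapped at 0. The pooled *Serpina1b* reads of a group were set against a floor of 3 reads over the 5 GC libraries together. With TMM-scaled library totals they stood at least 16.8-fold higher in MG and at least 6.94-fold higher in AG. These bounds allow for counting error in GC only and not for the spread between mice, so they do not bound a difference between groups. Without replicate 6 these bounds were 6.87-fold for MG and 2.91-fold for AG. With plain library totals (763279 counts in GC) the bounds were 18.8-fold for MG and 4.43-fold for AG, and 9.12-fold and 1.81-fold without replicate 6. The call of MG against GC (adjusted p = 8.44e-05, edgeR quasi-likelihood) was lost without MG replicate 6 (adjusted p = 0.0769). The difference of AG from GC did not pass (adjusted p = 0.0834), but in this test did with 1 of AG replicates 1 to 4 left out (adjusted p of 0.0359 to 0.0457). It also passed with the abundant genes left out (adjusted p = 0.0390).

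*Serpina3k* (chr12:104338486-104346144, plus strand) encodes an inhibitor of serine proteases that mouse liver secretes. It too held 0 reads in all 5 GC libraries. The AG libraries held 0 to 19 reads with a median of 0.5, and the MG libraries 0 to 21 with a median of 3.5. The highest values were in MG replicates 6 (21 reads) and 5 (14 reads) and in AG replicate 6 (19 reads). Pooled in the same way and with the same limit, *Serpina3k* reads stood at least 11.4-fold above the GC floor in MG and at least 7.98-fold in AG with TMM-scaled totals. With plain totals these bounds were 12.8-fold and 5.09-fold. Without AG replicate 6 the AG bound rested on 4 reads and was 1.67-fold with TMM-scaled and 1.04-fold with plain totals, and the adjusted p (edgeR quasi-likelihood) was 0.470. The MG call (adjusted p = 0.00165, edgeR quasi-likelihood) was lost without MG replicate 6 (adjusted p = 0.0769, bound of 6.56-fold with TMM-scaled and 8.71-fold with plain totals). The AG difference did not pass (adjusted p = 0.0591), but in this test did with 1 of AG replicates 1 to 5 left out (adjusted p of 0.0143 to 0.0345). It also passed without MG replicate 6 (adjusted p = 0.0473) and with the abundant genes left out (adjusted p = 0.0288).

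Reads of the serpins are uncertain as to gene. Of the 36-base runs in the longest *Serpina1b* transcript, 47.0% also occur in other genes, 604 of 1727 in *Serpina1d*, and for *Serpina3k* the share is 20.6%, led by *Serpina3m*. How reads with several matches were counted was not given in the sources used here. The paralogs held few reads. *Serpina1c* had 17, *Serpina1e* 15, *Serpina1d* 12, all in MG replicate 6, and *Serpina1a* 11 over the 17 libraries. Of 14 paralogs 5 were tested and 0 passed for MG against GC, with all 5 differences above 0. The transcripts of *Alb*, *Apob*, *Apoa1*, *Apoa2*, *Ttr* and *Fgb* shared no such run with another gene.

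*Fgb* (chr3:83040141-83049863, minus strand) encodes the beta chain of fibrinogen, the protein that forms the clot. It was the scarcest member, with 23 reads, of which MG replicate 6 held 15 and AG replicate 6 held 3. The other reads were in MG replicates 4 and 5, with 1 and 2, and in GC replicate 1, with 2. *Fgb* differed between MG and AG by 2.19 on the log2 scale (SE 1.06, adjusted p = 0.345) and between MG and GC by 2.62 (SE 1.15, adjusted p = 0.313, edgeR quasi-likelihood), neither of which passed. The difference of MG from GC was 0.30 without MG replicate 6 and 4.71 without GC replicate 1, and that of MG from AG was -0.13 without MG replicate 6 and 4.71 without AG replicate 6.

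The question of how many members passed was read against all genes. All 9 passed the filter of at least 5 reads over the 17 libraries, as did 6270 genes in all. This filter does not use the groups. It was chosen also because filterByExpr, another filter of edgeR, would leave most members untested, so passing it is no result. *Serpina1b* and *Serpina3k*, without a GC read, passed it through flight libraries alone. For MG against GC, 3 of 9 members were higher at an adjusted p under 0.05, where 10 of 6270 genes (0.159%) were called. Without MG replicate 6 these counts were 0 members and 4 genes. For MG against AG 0 of 9 were called (0.0957% of genes), and for AG against GC 0 of 9 (0% of genes, 764 of which had an unadjusted p under 0.05). The study used a looser rule, p under 0.05 before adjustment together with a fold over 1.5, on another test, in CLC Genomics Workbench. Put on the edgeR fit, that rule was passed by 7 of 9 members for MG against GC (13.6% of genes). It was passed by 4 of 9 for AG against GC (12.2%) and 3 of 9 for MG against AG (13.1%), all of them upward. These counts are not those of the study. With both replicates 6 left out, 3 of 9 passed that rule for MG against GC (12.2% of genes), 3 of 9 for AG against GC (9.28%) and 1 of 9 for MG against AG (11.6%). Of these the difference of AG from GC in *Apoa2* was downward (-3.61 on the log2 scale) and the others upward. For MG against AG the count was 9 of 9, all upward, without AG replicate 6 alone (13% of genes), and 1 of 9, *Ttr* downward, without MG replicate 6 alone (12.3%). No member had groups that did not overlap in any comparison. The share of all 6270 tested genes without overlap is not given here, so this count has no background to be read against.

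The median log2 difference of the members was 2.19 for MG against GC, where that of all tested genes was 0.22. It was 1.39 for AG against GC (all genes -0.05) and 0.52 for MG against AG (all genes 0.34). The differences above 0 numbered 9, 9 and 8 of 9 in these comparisons, and the last exception was *Apoa2*. Of all tested genes, 57.0% were above 0 for MG against GC, 45.8% for AG against GC and 60.8% for MG against AG. With the serpins set at their TMM-scaled bounds the median for MG against GC stayed 2.19. Without TMM scaling the median of all genes moved to 0.38, -0.62 and 1.07 in the same order, and the members' median relative to it was 1.62, 1.44 and -0.05, against 1.97, 1.44 and 0.18 with it. With both replicates 6 left out, the members' median was 0.80 for MG against GC (all genes 0.18), -0.18 for AG against GC (all genes -0.20) with 2 of 9 above 0, and 1.61 for MG against AG (all genes 0.45) with 9 of 9 above 0. For MG against AG a single library turned the direction. The members' median was -0.38 with 1 of 9 above 0 without MG replicate 6 alone (all genes 0.38), and 2.61 with 9 of 9 above 0 without AG replicate 6 alone (all genes 0.50). The 3 comparisons share libraries, so their counts are not separate evidence.

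**Figure D3:**
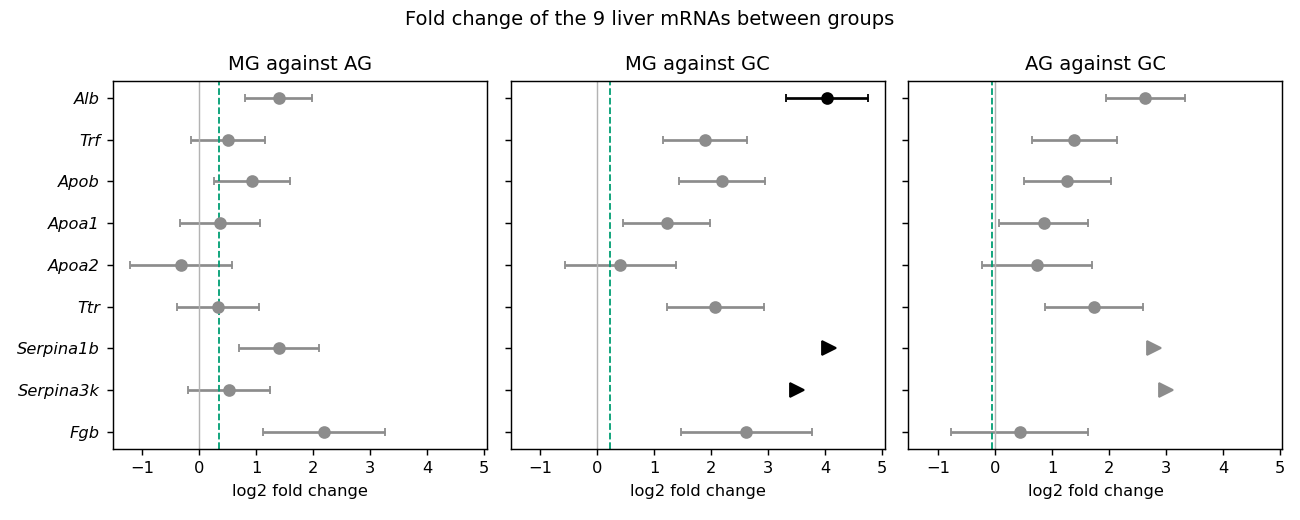
Log2 fold change of each liver mRNA in the fit across all genes, with the standard error as a bar, for MG against AG, MG against GC and AG against GC. Black marks an adjusted p under 0.05, and the dashed green line is the median of all 6270 tested genes. Arrowheads are lower bounds, with TMM-scaled totals, for genes without a GC read, and leave out the spread between mice. *Alb*, *Serpina1b* and *Serpina3k* are black for MG against GC and no gene is black in the other panels.

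Per length, *Alb* led in the libraries rich in liver mRNA. In MG replicate 6 *Alb* stood at 31.9 RPKM, followed by *Ttr* at 5.84, *Serpina1b* at 4.21, *Apoa2* at 3.31, *Trf* at 3.22, *Serpina3k* at 2.59, *Apoa1* at 2.47, *Fgb* at 1.00 and *Apob* at 0.82 RPKM. In AG replicate 6 *Alb* was at 7.22 RPKM, *Apoa2* at 3.26, *Ttr* at 2.51 and *Apoa1* at 2.24, and *Fgb* was last at 0.115 RPKM. *Alb* made up 58.3% of the members' reads in MG replicate 6 (95% Wilson interval 54.0 to 62.6) and 45.5% in AG replicate 6 (39.5 to 51.6). These intervals do not overlap, but they cover counting error in 2 mice and say nothing of the groups. That order did not hold in GC, where the mean RPKM was 1.36 ± 2.54 for *Apoa2*, 0.540 ± 0.383 for *Apoa1* and 0.535 ± 0.344 for *Alb* (SD, n = 5), spreads that overlap, and the *Apoa2* mean was set by the 5.83 RPKM of GC replicate 1. In MG without replicate 6 *Alb* was at 1.37 ± 0.936 and *Apoa1* at 1.15 ± 1.49 RPKM (SD, n = 5), which also overlap.

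The members ranked the mice alike, measured as a share of the reads outside the 4 abundant genes. All 36 pairs of members had a Spearman rho above 0 over the 17 libraries, with a median of 0.57 and a range of 0.19 (*Apoa1* with *Apoa2*) to 0.84 (*Apoa2* with *Fgb*). Without AG replicate 6 and MG replicate 6 the median fell to 0.36 over 15 libraries, and 32 of 36 pairs were above 0. The rank of *Alb* followed the sum of the other 8 genes with rho = 0.84 over 17 libraries and 0.77 without those libraries. *Serpina3k* did so with 0.87 and 0.80, and *Trf*, *Apob*, *Apoa1* and *Apoa2* with 0.55 to 0.60 and 0.36 to 0.42. These are descriptions of 17 points that share a library, a depth and a denominator, and many of the values are 0.

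Among the 673 other genes with at least 50 reads, those whose CPM ranked libraries most like the members' sum were *Hsp90b1* (rho = 0.83 over 17 libraries), a chaperone of the endoplasmic reticulum, *Cps1* (0.77), which opens the urea cycle, and *Gc* (0.76), the vitamin D carrier of plasma. *Rbbp4* (0.76), a histone-binding protein, and *C3* (0.73), the complement component, came next. Outside the liver lists the nearest were *Hsp90b1*, *Rbbp4*, *Selenop* (0.73), the selenium carrier, *Tns1* (0.71), an adhesion protein, and *Col1a2* (0.70), a collagen chain. The lists leave out some liver genes, so standing outside them does not make a gene foreign to the liver. Of the 20 genes most alike 8 belonged to the liver lists, which held 15 of the 673 genes. These lists take in lipoprotein export and nonparenchymal liver cells besides hepatocyte genes, and 2 of the 8, *Reln* and *Dcn*, are nonparenchymal. The median rho of all 673 was 0.08. Some liver genes reached 50 reads only with MG replicate 6 and AG replicate 6, such as *Mup3* (31 and 19 of 57 reads) and *Mat1a* (10 and 20 of 50). The tally of 8 in 20 was thus in part set by those mice, and it is a description and not a test. Without those mice the rho of the 8 genes ran from 0.44 (*Mat1a*) to 0.75 (*Reln*).

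Other hepatocyte genes, taken from lists made by function, peaked in the same mice. The other secreted plasma proteins (47 listed, 25 tested) held 756 reads, with 285 in MG replicate 6 and 117 in AG replicate 6, 53.2% of the list. In that list *C3* held 142 reads, *Apoe* 86, *Gc* 56 and *Hp*, haptoglobin, 52. *Gc* was at 42.3 CPM in MG, 16.9 in AG and 2.93 in GC on average, and the difference of MG from GC did not pass (3.68 on the log2 scale, adjusted p = 0.109, edgeR quasi-likelihood). None of the 25 passed in any comparison, and for MG against GC 25 of 25 differences were above 0 with a median of 2.22.

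The major urinary proteins, which male mouse liver secretes in large amounts, held 123 reads over 11 listed genes, 82.9% of them in replicates 6 of AG and MG. *Mup3* led with 57 reads, 31 in MG replicate 6 and 19 in AG replicate 6. *Mup20* held 25 reads, *Mup14* 15 and *Mup7* 8, and 0 of the 6 tested genes of the list passed in any comparison. *Mup4*, a gene of the same family that was not on the list, did pass, for MG against AG (adjusted p = 0.000280, edgeR quasi-likelihood) and for MG against GC (adjusted p = 0.000362). It was singled out after its values were seen. It held 57 reads, 56 of them in MG replicate 4 and none in replicates 6 of AG and MG or in GC, and neither call remained without MG replicate 4 (adjusted p = 0.686 and 0.744). Several genes of this family are near-identical copies, so reads of those may be split between them, and the sharing of sequence was not computed for this family.

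The hepatocyte metabolic enzymes (44 listed, 29 tested) held 815 reads with 38.8% in replicates 6 of AG and MG. *Cat* (catalase, 104 reads), *Aldh1a1* (88) and *Glul* (68), which other tissues express too, were spread over the libraries, with 13.2% to 22.7% of their reads in those 2 mice. *Cps1*, specific to liver and gut, had 50.8% of its 59 reads there. In this list 1 of 29 passed for MG against GC, *Mat1a*, which makes the methyl donor S-adenosylmethionine in liver, with 0 reads in GC, 10 in MG replicate 6 and 20 in AG replicate 6 (adjusted p = 0.0344, edgeR quasi-likelihood). That call was lost with any 1 of 8 libraries left out, AG replicate 6, MG replicates 5 and 6 and each GC library (adjusted p of 0.067 to 0.270). The median difference of the list was 2.36 for MG against GC and 1.36 for AG against GC.

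Hepatocyte transcription factors and receptors held 54 reads. *Hnf4a*, a master regulator of hepatocyte genes, had 27, of which AG replicate 6 held 14 and MG replicate 6 held 2, and GC held none. *Cebpa* had 6 reads, and *Onecut1* and the bile acid and drug carrier *Slco1b2* 5 each. None of the 4 tested passed in any comparison. Of the acute-phase list, which shares *Serpina3k* and *Fgb* with the members and several genes, *Hp*, *Fga* and *Cp* among them, with the plasma proteins, 1 of 10 tested passed for MG against GC, *Serpina3k* itself. *Cp*, ceruloplasmin, held 51 reads, with 24.5 CPM in MG, 16.2 in AG and 19.3 in GC. Genes of lipoprotein export and uptake held 274 reads, 211 of them of the receptor gene *Lrp1*, then *Pltp* (21) and *Abca1* (15), and 0 of 6 passed. For that list replicates 6 of AG and MG held 19.3% of the reads.

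Among the 10 genes called for MG against GC in all, 5 are known as liver genes, *Alb*, *Serpina1b*, *Serpina3k*, *Mat1a* and *Mug1*. *Mug1* encodes murinoglobulin, a protease inhibitor of mouse plasma, and was on no list, so it was singled out after its values were seen. It held 45 reads, 32 in MG replicate 6 and 8 in AG replicate 6, and none in GC (adjusted p = 0.00222, edgeR quasi-likelihood), and the call was lost without MG replicate 6 (adjusted p = 0.373). The other called genes were not high in the mice rich in liver mRNA. *Mup4*, *Gm14744*, *5430402E10Rik* and *Obp1b*, an odorant-binding protein, had 56, 94, 65 and 44 reads in MG replicate 4, none in replicates 6 of AG and MG and none in GC, and these 4 calls were lost without MG replicate 4. *Gm20186*, the only one of the 10 that was lower in MG, had 104 of its 157 reads in GC and 3 in each of AG replicate 6 and MG replicate 6, and its call was lost with any 1 of 8 libraries left out (adjusted p of 0.0625 to 0.429, edgeR quasi-likelihood).

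**Figure D4:**
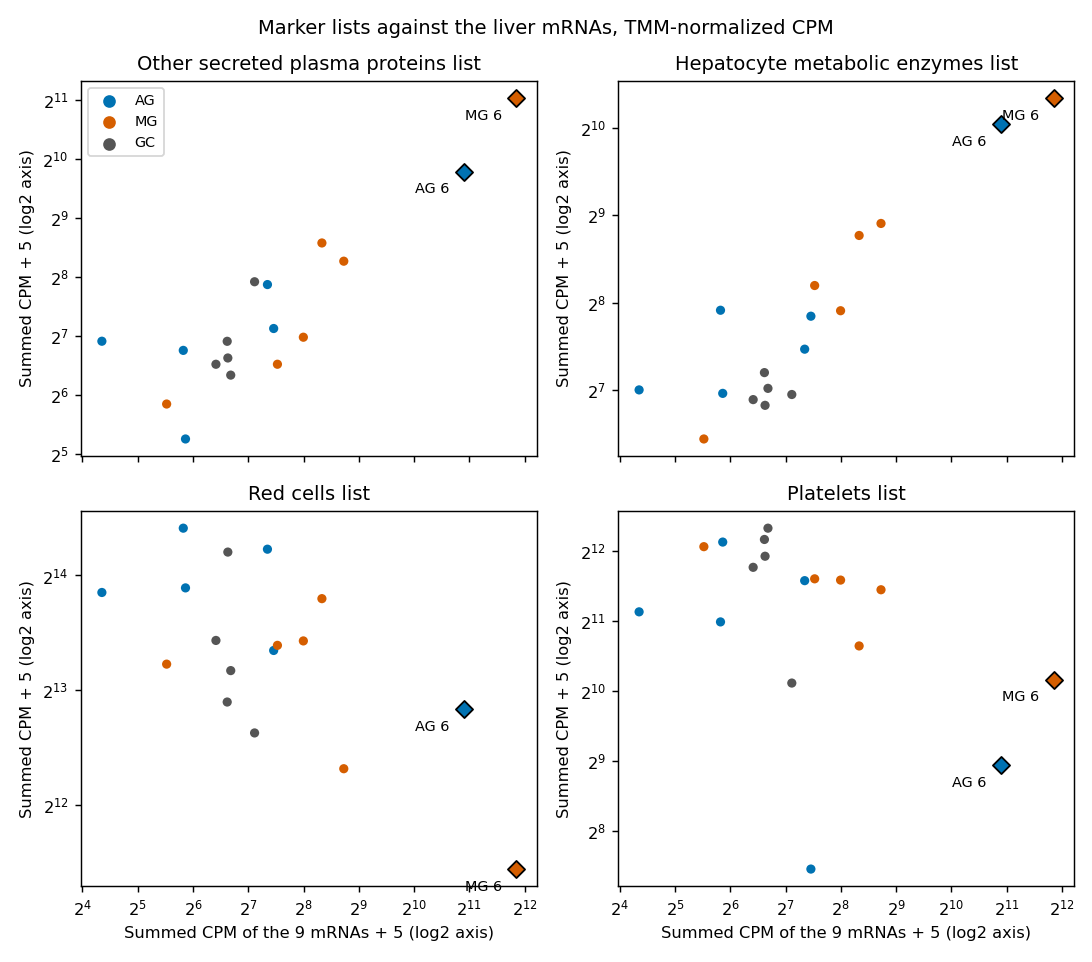
Summed level of 4 marker lists against that of the 9 liver mRNAs in each library, in TMM-normalized CPM plus 5 on log2 axes, coloured by group. AG replicate 6 and MG replicate 6 (diamonds) are highest for the lists of other secreted plasma proteins and of hepatocyte enzymes, MG replicate 6 is lowest for red cells (2784 CPM) and AG replicate 6 (487.5 CPM) is low for platelets.

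The microRNA gene *Mir122*, the leading microRNA of hepatocytes, had a count of 0 and an RPKM above 0 in every library, and its reads were recovered from RPKM. MG replicate 6 held 637 *Mir122* reads, or 162 RPM (reads relative to all mapped reads), the highest value. The AG libraries ran from 6.24 to 59.7 RPM with a median of 14.7, the MG libraries from 6.12 to 162 with a median of 16.3. The GC libraries held 21.3, 22.4, 9.14, 5.88 and 3.13 RPM. AG replicate 6, rich in liver mRNAs, was at 16.5 RPM, below AG replicates 1 (49.1) and 5 (59.7). *Mir122* ranked the libraries like the members with rho = 0.52 over 17 libraries and 0.42 without replicates 6 of AG and MG. *Mir192*, also expressed in gut and kidney, had 124 reads and a rho of 0.06, *Mir194-2* had 13 reads, and *Mir194-1* was listed at 0.

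Markers of other tissues that express some of the 9 genes were scarce. The enterocyte list held 61 reads, led by *Anpep* (15), *Apoa4* (14), *Muc13* (11) and *Fabp2* (8). AG replicate 6 was the highest library for this list at 45.002 CPM, just above AG replicate 3 (43.02), and MG replicate 6 ranked 6 of 17 at 29.3 CPM. *Fabp2* had 3 of its reads in AG replicate 6, and *Anpep* 1 there and 4 in MG replicate 6, while *Apoa4*, an apolipoprotein of the gut, and *Muc13* had none in either. The summed list ranked the libraries like the members with rho = 0.56 over 17 libraries and 0.54 without those mice. The choroid plexus list held 8 reads, 6 of *Kl*, with 0 in those libraries. The kidney tubule list held 26 reads (*Kap* 11, *Lrp2* 8) and the exocrine pancreas list 48 (*Cela1* 16, *Clps* 11, *Cela2a* 5). AG replicate 6 was the highest library for the pancreas list (60.002 CPM), just above AG replicate 1 (59.0), and MG replicate 6 had no read of it. For the kidney list AG replicate 6 (15.001 CPM) ranked 2 and MG replicate 6 (14.7) ranked 3 of 17, on 2 reads each. The part of these tissues in the levels of the liver mRNAs was not tested. None of the tested genes of these lists passed in any comparison.

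The list of nonparenchymal liver cells ranked the libraries like the members with rho = 0.58 over 17 libraries and 0.63 without replicates 6 of AG and MG. It held 404 reads, with *Reln* at 162, *Dcn* at 135, *Marco* at 23 and *Lrat* at 17. *Reln*, an extracellular matrix protein, had a rho of 0.69 (0.75 without those mice) and *Dcn*, the proteoglycan decorin, 0.61 (0.65). AG replicate 6 ranked second among libraries for this list and MG replicate 6 ranked 9. *Marco*, a scavenger receptor of macrophages, had no read in either.

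Red cell and platelet RNA was low in replicates 6 of AG and MG, and in some libraries with little liver mRNA too. The red cell list, led by *Hba-a2* (14517 reads), *Hbb-bs* (6054), *Hba-a1* (3570) and *Hbb-bt* (3344), ran from 2784 to 14243 CPM in MG, lowest in MG replicate 6, from 7313 in AG replicate 6 to 21790 in AG, and from 6333 in GC replicate 4 to 18864 in GC. MG replicate 5 (5103) and GC replicate 4 also lay below AG replicate 6. The platelet list, led by *Ppbp* (4963 reads), *Nrgn* (752), *Pf4* (475) and *Clec1b* (326), was at 487.5 CPM in AG replicate 6 and 1143 in MG replicate 6, against group medians of 2135 in AG, 2931 in MG and 3891 in GC. The lowest platelet value was that of AG replicate 5 (170.9 CPM), and GC replicate 4 (1105) lay below MG replicate 6. The leukocyte list held 765 reads, led by *Lyz2* (356), *Laptm5* (122), *Ighm* (57) and *Cd74* (54), and lay between 167 and 401.5 CPM. The skeletal muscle list held 304 reads, led by *Ttn* (149), *Myh4* (59), *Mb* (21) and *Myh1* (20), with 44.0 CPM in MG replicate 6 and 52.5 in AG replicate 6. None of the tested genes of these 4 lists passed in any comparison. The part of blood cell RNA in the levels of the liver mRNAs was not tested.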

How the data were processed

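Plasma of the inferior vena cava, taken into EDTA, was extracted with TRIzol-LS, and 2.5 μl of RNA entered the NEBNext Small RNA Library Kit because the RNA was degraded. Per the labels and methods, the authors sequenced pairs of 36 bases, aligned them to mm10 with CLC Genomics Workbench and summed reads over 49585 genes. Counts were deposited without normalization. The deposited RPKM values are relative to gene length and to mapped reads. The deposited TPM column was not used. Strand setting, trimming and the treatment of reads with several matches are not given in the sources used here.

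Members and gene lists were chosen with earlier results of these data known. Genes with at least 5 reads over the 17 libraries were fitted with all libraries together in edgeR 4.0.16 (R 4.3.3; TMM scaling (trimmed mean of M values), quasi-likelihood F-test, no covariate, Benjamini-Hochberg adjustment over all tested genes, threshold 0.05). The common dispersion gave a biological coefficient of variation of 0.941. The alternatives used DESeq2 1.42.0, limma 3.58.1 on log2(RPKM + 1), edgeR's exact test, other filters and scalings, a replicate block and libraries left out. *Alb* was also tested by exact two-sided permutation over libraries of mean log2(CPM + 5), in Python 3.11.15 with scipy 1.17.1. The fits were tried on simulated counts that varied between libraries about as these do (dispersion 0.9). For MG against AG, a true log2 change of 2 was called in 0% of changed genes. For MG against GC it was called in 4% of those with at least 50 reads and 0% of those under 50. A change of 4 was called in 54% and 26.2% for MG against AG, and 52% and 19% for MG against GC. A difference that did not pass is thus not shown to be absent. Among the 40 pairs of libraries of the same group none agreed within sampling noise.

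Counts were 0 for 579 genes with an RPKM above 0, *Mir122* among them. Mapped totals implied by RPKM and GENCODE M21 lengths (1596032 to 9796884) gave reads for 548 of these, 99.0% within 0.05 of a whole number. Named genes were the members, up to 4 genes of each list with the most reads, the genes most like the members' sum, and genes above 5% of any library.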

Additional observations from a re-analysis of the deposited data

Results flagged for a closer look

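Within each group of 5 or 6 libraries, a library was singled out when its gap to the nearest other exceeded Dixon's 95% critical value of the group's range. This was done for 34 groups of values, in which chance would give about 1.7, and 21 were singled out, 9 in AG replicate 6 and 8 in MG replicate 6. The tests are not independent, since the same mouse is high for many genes.

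AG replicate 6 lay far above the other AG libraries with 870 CPM for *Alb*, 218 CPM for *Trf*, 173 CPM for *Apob*, 143 CPM for *Apoa1*, 90.0 CPM for *Apoa2*, 158 CPM for *Ttr*, 97.5 CPM for *Serpina1b*, 143 CPM for *Serpina3k* and 22.5 CPM for *Fgb*. MG replicate 6 lay far above the other MG libraries with 2154 CPM for *Alb*, 308 CPM for *Trf*, 330 CPM for *Apob*, 51.3 CPM for *Apoa2*, 205 CPM for *Ttr*, 293 CPM for *Serpina1b* and 110 CPM for *Fgb*. GC replicate 1 lay far above the other GC libraries with 36.2 CPM for *Apoa2* and 14.5 CPM for *Fgb*. *Mir122* stood apart in MG replicate 6 at 162 RPM (reads relative to all mapped reads). *Mir192* stood apart in MG replicate 1 at 9.37 and in AG replicate 1 at 7.26 RPM, which are neither of the libraries rich in liver mRNA. The values of GC replicate 1 rest on 5 reads of *Apoa2* and 2 of *Fgb* in the shallowest library.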

How the results depend on the processing

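The count of members called for MG against GC (3) was 3 without TMM factors, without a filter, with edgeR's exact test, with only the libraries of the pair and with the abundant genes left out. It was 0 with DESeq2 (which gave *Alb* no adjusted p), filterByExpr (which kept only *Alb* of the 9), limma on RPKM, the replicate block, and both replicates 6 left out. With DESeq2, filterByExpr, limma and the replicate block 0 genes of any kind were called, and with both replicates 6 left out 5 were. It was 7 under the criterion of the study, put on the edgeR fit. Leaving out 1 library gave 0 (MG replicate 6) to 3. For MG against AG it was 3 under that criterion and 0 to 1 with 1 library left out, *Alb* passing without AG replicate 6. For AG against GC it was 2 with the abundant genes left out, 4 under the criterion and 0 to 3 with 1 library left out, most without AG replicate 2. The cause was not tested.

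The count of all genes called for MG against AG (6) was 1 with DESeq2, 0 with filterByExpr, 0 with limma, 2 with the replicate block, 819 under the criterion, and 1 (without MG replicate 4) to 8 with 1 library left out. For MG against GC (10) it was 0 with DESeq2, filterByExpr, limma and the replicate block, 5 without both replicates 6, 854 under the criterion, and 4 (without MG replicate 6) to 12. For AG against GC (0) it was 2 without TMM factors, with DESeq2 and without a filter, 4 with filterByExpr and with the abundant genes left out, 7 without both replicates 6, 764 under the criterion, and 0 to 5 with 1 library left out.

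The permutation difference of *Alb* for AG against GC (0.47) turned to -0.44 with the replicate block and with both replicates 6 left out, and ran from -0.44 to 1.05 with 1 library left out. For MG against GC it ran from 1.09 (without MG replicate 6) to 2.84 (without MG replicate 2, where it passed). For MG against AG (1.49) it ran from 0.62 (without MG replicate 6) to 2.39 (without AG replicate 6).

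Of 549 alternative fold changes of single members, 475 kept direction and side of the threshold, 15 lost it, 14 gained it and 45 turned. With both replicates 6 left out the log2 difference for AG against GC was -0.18 for *Alb*, -0.035 for *Trf*, -0.17 for *Apob*, -0.71 for *Apoa1*, -3.61 for *Apoa2*, -0.78 for *Ttr* and -2.16 for *Fgb*, that for MG against GC -0.82 for *Apoa2* and -0.27 for *Ttr*, and that for MG against AG 2.79 for *Apoa2*. With the replicate block AG against GC was -0.25 for *Alb*, -0.11 for *Trf*, -0.14 for *Apob*, -0.38 for *Apoa1*, -1.94 for *Apoa2*, -0.52 for *Ttr* and -1.90 for *Fgb*, MG against GC -0.83 for *Apoa2* and -0.31 for *Ttr*, and MG against AG 1.11 for *Apoa2*. Without TMM factors *Apoa2* was at -0.058 for MG against GC and -0.020 for AG against GC, and *Fgb* at -0.20 for AG against GC. With limma *Apoa2* was at 0.26, -0.14 and -0.40 for MG against AG, MG against GC and AG against GC, and *Fgb* at -0.056 for AG against GC.

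With 1 library left out, MG against AG ran from -0.80 to 4.21 for *Alb*, -0.76 to 1.93 for *Trf*, -0.38 to 2.35 for *Apob*, -0.17 to 1.93 for *Apoa1*, -1.51 to 4.01 for *Apoa2*, -1.85 to 2.87 for *Ttr*, -0.025 to 2.58 for *Serpina1b*, -0.32 to 2.61 for *Serpina3k* and -0.13 to 4.71 for *Fgb*. MG against GC ran from -0.76 to 1.88 for *Apoa2* and -0.12 to 3.29 for *Ttr*. AG against GC ran from -0.18 to 2.91 for *Alb*, -0.041 to 1.76 for *Trf*, -0.16 to 1.95 for *Apob*, -0.71 to 1.30 for *Apoa1*, -3.59 to 2.20 for *Apoa2*, -0.79 to 2.91 for *Ttr* and -2.09 to 2.52 for *Fgb*. The turns came without replicate 6 of MG or AG, or without MG replicate 5 for *Apoa1*.

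Replicate numbers were not shown to pair the mice. Deviations of same-numbered libraries from their group means correlated from -0.43 to 0.44 over 370 genes. The number of mice and of reads limits every value above, and most members rest on under 10 reads in most libraries.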
